A study of Mus musculus with 12 samples.

Results

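Serpins are a family of proteins that mostly inhibit serine proteases, and 31 genes of the family were measured among 12284 named genes in mouse liver. The members were all genes of the deposited expression table whose symbol begins with Serpin followed by a clade letter from a to i and a number. They comprised 18 genes of clade A, 5 of clade B, 2 each of clades E and F and 1 each of clades C, D, G and H. Liver RNA was compared between 6 control libraries (WT) and 6 double knockout libraries (DKO), and all animals carried floxed alleles of both Acly and Acss2 (Acly f/f; Acss2 f/f). At 6 to 8 weeks of age the DKO mice received AAV8-TBG-Cre, an adeno-associated virus that makes Cre recombinase under the hepatocyte-directed TBG promoter, and the WT mice received AAV8-TBG-GFP. The mice were switched to a Western diet (Teklad TD.88137) after 1 week and ate it for 6 weeks until the liver was taken. Cells other than hepatocytes keep both genes in this model, and the groups differ in Cre and GFP as well as in the deletion, so that effects of the virus cargo and of the gene loss cannot be told apart. Whether the 12 libraries stand for 12 mice is not said in the labels, and p-values therefore measure only the spread between these libraries.

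A serpin inhibits its target by offering an exposed loop, the reactive centre loop, as bait. The protease cleaves the loop, the serpin changes shape and the enzyme is trapped in a covalent complex, which receptors such as Lrp1 clear. Hepatocytes secrete most serpins of the blood: the Serpina1 proteins (antitrypsins), the Serpina3 proteins, antithrombin (Serpinc1), heparin cofactor (Serpind1), antiplasmin (Serpinf2) and the inhibitor of complement C1 (Serping1). Clade B serpins mostly stay inside cells, many of them leukocytes, and a few members inhibit no protease but carry hormones (Serpina6 and Serpina7) or help collagen to fold (Serpinh1). Mice have several copies of the antitrypsin gene, where humans have a single one, and the loop is among the places where the copies differ.

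That loop is shown first because the clearest difference between the genotypes lay within the antitrypsin copies. The 81 bases below are the 27 codons just before the conserved serpin signature near the end of each coding sequence, taken from GENCODE M21 transcripts (GRCm38) and written 5′ to 3′. Capitals mark the 14 positions at which the 5 genes differ.
Serpina1a: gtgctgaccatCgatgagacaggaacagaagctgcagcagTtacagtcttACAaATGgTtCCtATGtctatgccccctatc
Serpina1b: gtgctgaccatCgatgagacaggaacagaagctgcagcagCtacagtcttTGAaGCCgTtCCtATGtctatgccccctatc
Serpina1c: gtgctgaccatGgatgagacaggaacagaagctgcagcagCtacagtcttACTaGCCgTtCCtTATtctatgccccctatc
Serpina1d: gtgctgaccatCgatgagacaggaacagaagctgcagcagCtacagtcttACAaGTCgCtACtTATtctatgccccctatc
Serpina1e: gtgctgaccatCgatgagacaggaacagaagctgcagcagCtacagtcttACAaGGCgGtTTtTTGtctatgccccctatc
From Serpina1c, the stretch of Serpina1a differed at 9 positions, that of Serpina1e at 8, that of Serpina1b at 7 and that of Serpina1d at 5. Over whole coding sequences, Serpina1b, Serpina1c, Serpina1d and Serpina1e were 96.3% to 96.8% identical in pairs. The longest annotated coding sequence of Serpina1a has 1311 bases, against 1242 for each of the others, and was 91.6% to 93.4% identical to them.

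Over the whole 300-base promoters, Serpina1a to Serpina1d were 85.3% to 91.4% identical in pairs and Serpina1e was 64.2% to 69.6% identical to them. A window chosen around 1 motif was closer. In its 60 bases, from RefSeq promoters of build GRCm38.p6 on the minus strand, Serpina1a and Serpina1b matched Serpina1c at every position, Serpina1e differed from it at 1 and Serpina1d at 4. Capitals mark GTTAAT, letters found in sites of the liver transcription factor HNF1. These letters began at -78 from the annotated start in Serpina1e and at -16 to -27 in the other copies. The 300-base promoter of Serpina1e was therefore shifted against the others, and its lower identity over the whole promoter includes this shift.
Serpina1c: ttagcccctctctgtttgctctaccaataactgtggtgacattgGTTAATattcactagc
Serpina1d: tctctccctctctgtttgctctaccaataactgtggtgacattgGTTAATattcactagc
Serpina1e: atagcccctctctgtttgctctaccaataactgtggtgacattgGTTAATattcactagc
These lie at chr12:103904962-103905021 for Serpina1c, chr12:103773634-103773693 for Serpina1d and chr12:103956960-103957019 for Serpina1e. Of the 31 members, 22 had a promoter in the table (300 bases, 250 of them before the start), and GTTAAT was present on either strand in 8 of the 22 (36.4%), against 7.2% of 27025 promoters of all genes. Of these, 5 were the antitrypsin genes, which are near copies of each other around the site and so not independent cases. The others were Serpina3c, Serpina7 and Serpinb8. The full HNF1 palindrome, which contains these letters, was in 0 of the 22 (0.0074% of all), and TTCNNNGAA, the letters of STAT sites, was in 4, those of Serpina11, Serpina3f, Serpina3g and Serpinb6a (18.2%, against 8.47% of all). A match describes these letters only and is no evidence of binding.

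Values were log2 CPM, that is read counts scaled to library size on a log2 scale, as deposited by the authors. They are not scaled to gene length, so that levels are compared between libraries and not between genes. Summed back-transformed values ranged from 905964 to 1087992 CPM per library; the number of reads was unknown, and no counting interval could be given. The 31 serpins together took 3.74% to 4.28% of the CPM in WT libraries and 3.61% to 4.25% in DKO libraries. The deleted genes were lower in DKO: Acly had 17.6% of the WT level (limma adjusted p = 0.0165) and Acss2 22% (limma adjusted p = 0.00571), with Acly in DKO 1 (6.60 log2 CPM) above the lowest WT value (6.56). Of 15 hepatocyte markers 1 fell (Asgr1, a lectin receptor, limma adjusted p = 0.0452), with a summed level of 83920 to 104700 CPM in WT and 72020 to 102200 CPM in DKO, and of 15 macrophage and monocyte markers 3 rose. The hepatocyte markers had a median log2 difference of -0.17, 10 lower and 5 higher, with 5 lower and 0 higher at an unadjusted limma p below 0.05 (8.47% and 7.95% of all genes), and 1.12% of all genes fell; their part in the values of the hepatocyte serpins was not tested.

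Of the 31 serpin genes 1 was called between DKO and WT at a limma adjusted p below 0.05 (3.23%), against 1.74% of all genes, and it fell (1.12% of all genes fell). This gene was Serpina1c. For 2 members, Serpina1c and Serpinb1a, no DKO library reached the WT range (6.45%, against 2.17% of all genes), both lower in DKO. An unadjusted limma p below 0.05 was reached by 7 members (22.6%, against 16.4% of all genes), 4 higher and 3 lower in DKO (7.95% and 8.47% of all genes). In all, 18 members were lower and 13 higher, with a median log2 difference of -0.09 against 0.0041 for all genes; among these Serpina3n, Serpina7, Serpinc1 and Serpinf2 changed sign when the libraries were rescaled. The median was -0.07 in clade A (8 higher, 10 lower) and 0.09 in clade B (3 higher, 2 lower), and of the 8 members of clades C to H 2 were higher and 6 lower, with a median of -0.12.

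**Figure D1:**
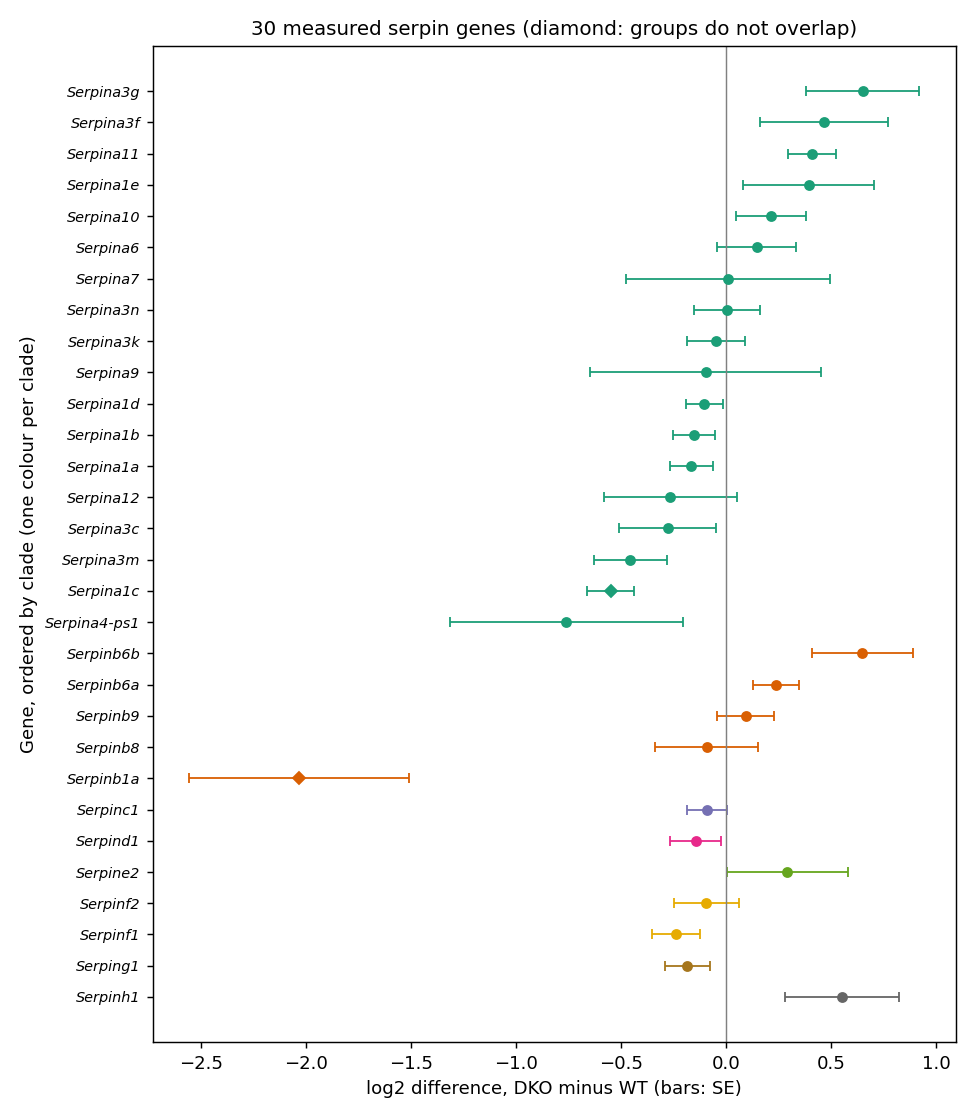
Difference between DKO and WT for 30 serpin genes, as the log2 difference on the x axis with its standard error, ordered by clade on the y axis with one colour per clade. Diamonds mark Serpina1c (-0.55) and Serpinb1a (-2.03), the 2 genes whose groups do not overlap; only Serpina1c passed the adjusted threshold.

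Serpina1c, an antitrypsin of hepatocytes, fell in DKO to 68.4% of its WT level. In WT its level was 13.04, 13.06, 13.08, 13.03, 13.14 and 13.13 log2 CPM in libraries 1 to 6, a spread of 0.05 (SD, n = 6) around a mean of 13.08. In DKO it was 12.52, 12.62, 12.33, 12.35, 12.48 and 12.89 log2 CPM, with a mean of 12.53 ± 0.21 (SD, n = 6). All 6 DKO libraries lay below the lowest WT library, and the DKO values were more spread than the WT values, with DKO 6 nearest to WT. The log2 difference was -0.55 (SE 0.11; limma adjusted p = 0.0282), and a 2-sided exact permutation test of the 2 groups of 6 gave p = 0.00216, the smallest that this design allows; such exact tests were computed for all 31 members. With 1 library left out the call ended for WT 2, WT 3, WT 4, WT 5, WT 6, DKO 1, DKO 3, DKO 4 or DKO 5 (limma adjusted p from 0.0528 to 0.0672) and held without WT 1, DKO 2 or DKO 6, while the difference stayed between -0.62 and -0.51. With quantile normalization it ended too (difference -0.53, limma adjusted p = 0.0621).

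The other antitrypsin copies overlapped between the groups. Serpina1a ranged from 11.95 to 12.19 log2 CPM in WT (median 12.05) and from 11.70 to 12.10 in DKO (median 11.89). Serpina1b ranged from 12.24 to 12.52 in WT (median 12.31) and from 12.02 to 12.37 in DKO (median 12.2). Serpina1d ranged from 11.60 to 11.79 in WT (median 11.66) and from 11.43 to 11.75 in DKO (median 11.56). For each of these 3 genes, 3 of the 6 DKO libraries lay below the lowest WT library. Their log2 differences were -0.17 (SE 0.10), -0.15 (SE 0.10) and -0.10 (SE 0.09), none of which passed (limma adjusted p = 0.457, 0.485 and 0.618).

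Serpina1e stood apart from these copies. It spanned 11.10 to 12.77 log2 CPM in WT (median 12.13) and 11.84 to 13.24 in DKO (median 12.31), and its SD of 0.71 in WT compares with 0.05 to 0.10 for the other 4 copies. WT 3 (11.19) and WT 5 (11.10) were lowest and DKO 1 highest. The log2 difference was 0.39 (SE 0.31; limma adjusted p = 0.581), opposite in sign to the other copies, and it came to 0.23, 0.22 and 0.22 without WT 3, WT 5 or DKO 1.

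**Figure D2:**
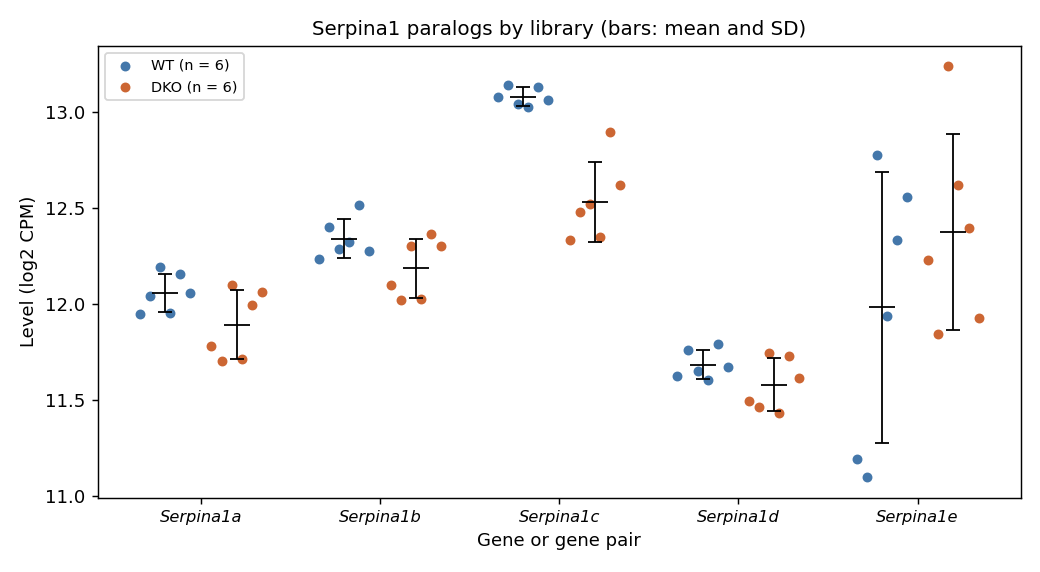
Level of the 5 Serpina1 paralogs in log2 CPM on the y axis, with 1 point per library (6 WT, 6 DKO) and the mean and SD as black bars. The DKO points of Serpina1c all lie below its WT points (12.33 to 12.89 against 13.03 to 13.14), while the points of the other 4 genes overlap, those of Serpina1e over the widest range.

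Ratios between the copies within a library do not depend on how libraries were scaled. The log2 ratio of Serpina1c to Serpina1b averaged 0.74 ± 0.08 (SD, n = 6) in WT and 0.35 ± 0.12 (SD, n = 6) in DKO, with the lowest WT value at 0.62 and the highest DKO value at 0.53. The ratio of Serpina1c to Serpina1d was 1.40 ± 0.04 in WT and 0.95 ± 0.14 in DKO, again with no overlap (lowest WT 1.34, highest DKO 1.16). The ratio of Serpina1c to Serpina1a was 1.02 ± 0.10 in WT and 0.64 ± 0.17 in DKO, and here DKO 6 (0.90) lay above the lowest WT library, WT 1 (0.85). By contrast the ratio of Serpina1a to Serpina1b was -0.28 ± 0.11 in WT and -0.29 ± 0.06 in DKO. Serpina1c thus stood lower relative to Serpina1b and Serpina1d in each DKO library than in any WT library; these ratios were chosen after the values were seen and carry no test.

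**Figure D3:**
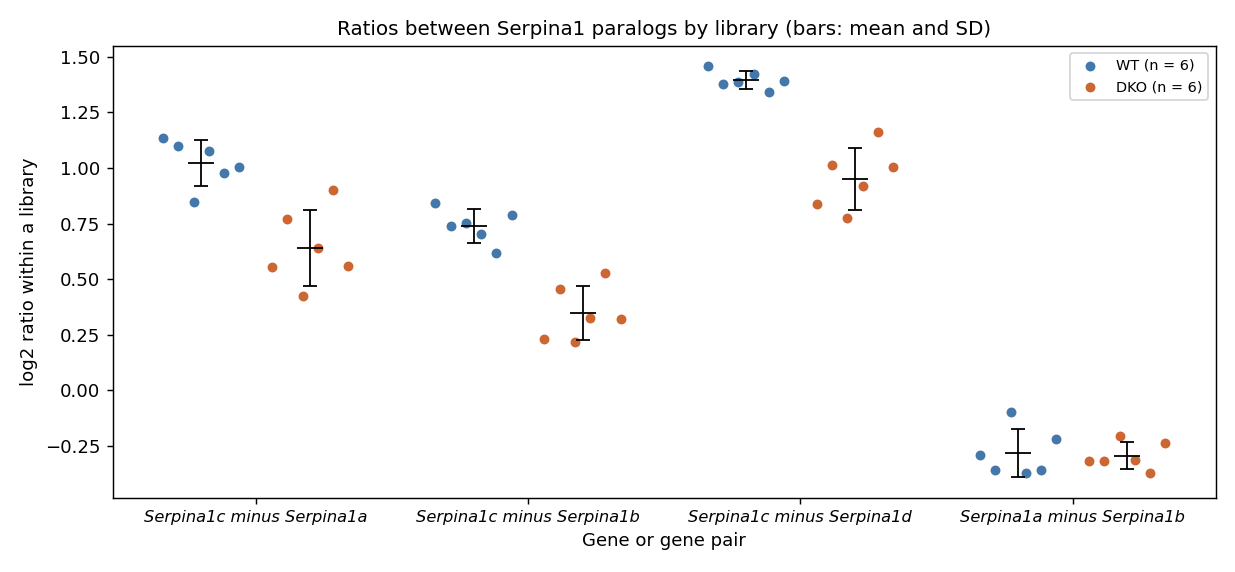
Log2 ratio of 1 Serpina1 paralog to another within the same library on the y axis, for 4 pairs, with 1 point per library (6 WT, 6 DKO) and the mean and SD as black bars. The ratios of Serpina1c to Serpina1b and to Serpina1d do not overlap between WT and DKO, while that of Serpina1a to Serpina1b has the mean -0.28 in WT and -0.29 in DKO.

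How far the copies can be told apart by their reads was examined on GENCODE M21 transcripts, cut into words of 31 letters, the default word length of kallisto; what word length the authors set is not stated. Of the 1331 words of Serpina1c, 85.8% also occur in another gene, the highest share among the 31 members, and 77.5% occur in Serpina1a. The share was 65.2% for Serpina1a, 64.7% for Serpina1d, 54.2% for Serpina1e and 44.7% for Serpina1b. Reads without a distinguishing word are divided between copies by the counting program, so that the division between Serpina1c and Serpina1a is the least certain. Their sum, which does not depend on that division, was 12305 to 13537 CPM in WT and 8570 to 11686 CPM in DKO, 75.3% of the WT level, with no overlap. This pair was not among the planned sums, and Serpina1c, already known not to overlap, is the larger part of it. Serpina1a also shares 699 words with Serpina1b, so the sum of the pair still depends on the division with that copy. The sum over all 5 copies was 22920 to 28307 CPM in WT and 19685 to 28399 CPM in DKO (89.15% of WT), and the groups overlapped. Serpina1c took 33.7% ± 3.22 (SD, n = 6) of that sum in WT and 26% ± 3.40 (SD, n = 6) in DKO, while Serpina1a took 16.5% ± 0.62 and 16.6% ± 1.33. Serpina1e took 16.8% ± 6.33 in WT and 23.8% ± 6.45 in DKO, so the share of Serpina1c also depends on this variable copy. Serpina1a, Serpina1b, Serpina1d and Serpina1e together gave 17198 ± 2287 CPM (SD, n = 6) in WT and 17193 ± 2942 CPM (SD, n = 6) in DKO. The near-equal sums do not mean that each copy was unchanged. Serpina1a, Serpina1b and Serpina1d stood at 89.1%, 89.9% and 93.1% of WT, and Serpina1e at 131%.

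**Figure D4:**
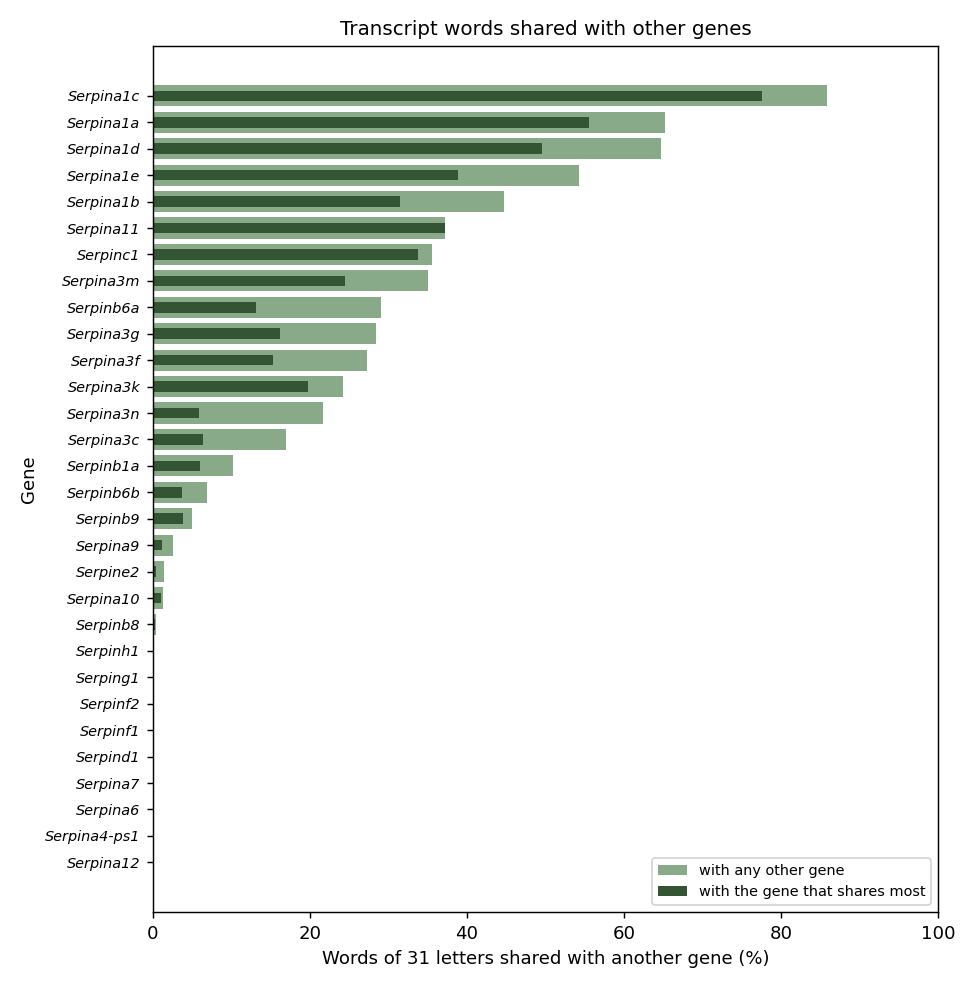
Share of the 31-letter words of each gene's GENCODE M21 transcripts that also occur in another gene, in percent on the x axis, for 30 members (wide bars: any other gene; narrow bars: the gene that shares most). Serpina1c has the highest share, with 85.8% of its words in any other gene and 77.5% of its words in Serpina1a.

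The antitrypsin copies sit side by side in the RefSeq order of chromosome 12 (GRCm38.p6), as Serpina1b, Serpina1d, Serpina1a, Serpina1c and Serpina1e, followed by Serpina11, Serpina9 and Serpina12. Serpina11, a little-studied secreted serpin and the next gene after Serpina1e, was 6.63, 6.31, 5.93, 6.29, 6.01 and 6.34 log2 CPM in WT 1 to 6. In DKO 1 to 6 it was 6.92, 6.63, 6.79, 6.48, 6.58 and 6.58 log2 CPM. Each DKO value exceeded the WT mean of 6.25, and 2 exceeded the highest WT library (exact permutation p = 0.0108). The log2 difference was 0.41 (SE 0.12; 133% of WT) and did not pass (limma adjusted p = 0.0880); without WT 1 it did (limma adjusted p = 0.0279). Of its words, 37.2% also occur in the annotated gene Gm28577. Serpina9, known from germinal centre B cells, and Serpina12, the adipokine vaspin, had log2 differences of -0.10 (SE 0.55) and -0.27 (SE 0.32) with limma adjusted p of 0.955 and 0.735; Serpina9 turned positive without WT 4, DKO 2 or DKO 3 (0.28, 0.02 and 0.19), and Serpina12 came to -0.0019 without DKO 2, its lowest library.

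The 6 measured Serpina3 genes, relatives of human antichymotrypsin that follow further along chromosome 12, had a median log2 difference of -0.02, 3 higher and 3 lower, and 0 were called by limma (2 had an unadjusted p below 0.05, against 16.4% of all genes). Serpina3m was 8.08, 8.04, 8.54, 7.85, 8.80 and 8.27 log2 CPM in WT 1 to 6 and 7.21, 7.83, 7.99, 7.70, 8.17 and 7.93 in DKO 1 to 6. Each DKO value was under the WT mean of 8.26, 3 of them under the lowest WT library, with a log2 difference of -0.46 (SE 0.17; exact permutation p = 0.0368; limma adjusted p = 0.201). Serpina3g, an intracellular inhibitor of lysosomal cathepsins, was 2.62, 3.05, 2.996, 3.18, 2.55 and 1.94 log2 CPM in WT 1 to 6. In DKO 1 to 6 it was 3.32, 4.004, 3.01, 4.06, 3.26 and 2.59 log2 CPM. Of these, 4 lay above the highest WT library, with a log2 difference of 0.65 (SE 0.27; exact permutation p = 0.0519; limma adjusted p = 0.241).

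Serpina3k, the mouse binding protein of tissue kallikrein, differed by -0.05 (SE 0.14; limma adjusted p = 0.906), and by 0.05 without DKO 2, its lowest library. Serpina3n, an acute phase inhibitor of granzyme B and other leukocyte proteases, differed by 0.0035 (SE 0.16; limma adjusted p = 0.996) and turned negative, by at most -0.09, after library medians were subtracted or without WT 2, WT 3, WT 4, DKO 1 or DKO 5. Serpina3c and Serpina3f had differences of -0.28 (SE 0.23) and 0.47 (SE 0.31), with limma adjusted p of 0.600 and 0.486; without WT 5 the first came to -0.10, and without DKO 2 the second to 0.27. Serpina3m shares 24.5% of its words with Serpina3k, with a coding identity of 91.2%, and Serpina3g shares 16.2% with Serpina3f. The sum of the 6 genes was 9389 to 11875 CPM in WT and 7391 to 12260 CPM in DKO. DKO 2 was lowest and DKO 1 highest, so that the spread within DKO covered the whole WT range.

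Since Serpina3n is induced in the acute phase, 20 acute phase genes were listed beside it. Of them 9 were higher and 11 lower (median -0.03), 0 were called by limma, and 2 had an unadjusted p below 0.05 (10%, against 16.4% of all genes). The closest to the threshold was Saa4, with a difference of -0.71 (SE 0.18; limma adjusted p = 0.0630). Of 11 genes of acute phase signalling 0 were called by limma (2 at an unadjusted p below 0.05), and Osmr, a receptor chain for oncostatin M, was closest (0.77, SE 0.25, limma adjusted p = 0.122). Among 9 hepatocyte transcription factors, 8 were lower in DKO and 0 were called by limma (median -0.18). An unadjusted limma p below 0.05 was reached by 3, all lower (33.3%, against 8.47% of all genes), with Cebpa closest (-0.44, SE 0.15, limma adjusted p = 0.162).

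The hormone carriers and the remaining clade A genes were not called. Serpina6, the corticosteroid carrier, ranged from 7.02 to 7.47 log2 CPM in WT (median 7.25) and from 6.87 to 8.17 in DKO (median 7.45). Its difference was 0.15 (SE 0.19; limma adjusted p = 0.753) and -0.0058 without DKO 2, the highest library. Serpina7, the thyroxine carrier on the X chromosome, ranged from 3.49 to 5.43 log2 CPM in WT (median 4.44) and from 3.02 to 6.01 in DKO (median 4.56). Its difference of 0.0090 (SE 0.49; limma adjusted p = 0.997) turned negative under 3 of the other settings, down to -0.24 with array weights. DKO 2 had the highest value of both carriers. Among 7 other plasma carriers of hormones and vitamins, 1 was higher and 6 lower, and 0 were called by limma (0 at an unadjusted p below 0.05); the closest was Gc, the vitamin D carrier (-0.21, SE 0.10, limma adjusted p = 0.335). Serpina10, which with protein Z inhibits coagulation factor X, ranged from 6.48 to 7.30 in WT and 6.73 to 7.55 in DKO (difference 0.22, SE 0.17, limma adjusted p = 0.565), and Proz, protein Z itself, differed by -0.14 (SE 0.07; limma adjusted p = 0.360). Serpina4-ps1, annotated as a pseudogene, was the most variable member of clade A within WT (5.53 to 8.91 log2 CPM; 4.77 to 7.74 in DKO; difference -0.76, SE 0.56, limma adjusted p = 0.539), and its difference ranged from -1.12 without WT 6 to -0.40 without DKO 2.

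In clade B, whose members mostly act inside cells, Serpinb1a was lower in every DKO library than in any WT library but did not pass the adjusted threshold. Serpinb1a inhibits neutrophil elastase, cathepsin G and proteinase 3. In WT 1 to 6 it was 0.90, 1.38, 1.85, 1.14, 1.57 and 1.78 log2 CPM. In DKO 1 to 6 it was 0.63, 0.65, -1.60, -2.63, -0.95 and 0.32 log2 CPM. DKO 1 and DKO 2 lay just below the lowest WT library and DKO 3, DKO 4 and DKO 5 far below it. The log2 difference was -2.03 (SE 0.52; 24.4% of WT; limma adjusted p = 0.0666; exact permutation p = 0.00216, the smallest possible). DKO 4 approached the minimum of the whole table (-3.26), and the size of the difference depends on how low values are treated: on the log2(CPM + 1) scale the difference was -1.05 and passed (limma adjusted p = 0.0315). It also passed with array weights (limma adjusted p = 0.0232) and without DKO 2 (0.0486).

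The Serpinb6 genes pointed the other way. Serpinb6a, an inhibitor of cathepsin G among others, was 3.73, 3.55, 3.70, 3.61, 3.50 and 3.45 log2 CPM in WT 1 to 6 and 3.79, 3.87, 3.81, 4.02, 3.996 and 3.49 in DKO 1 to 6. Of the DKO libraries, all but DKO 6 lay above the highest WT library (difference 0.24, SE 0.11, limma adjusted p = 0.295; exact permutation p = 0.0281). Serpinb6b was 0.39, 0.75, 1.46, 1.07, 1.38 and 0.56 log2 CPM in WT 1 to 6 and 1.91, 1.71, 1.06, 1.89, 1.61 and 1.33 in DKO 1 to 6. Here 4 DKO libraries lay above the highest WT library (difference 0.65, SE 0.24, limma adjusted p = 0.187; exact permutation p = 0.0238). Their sum was 12.4 to 15.8 CPM in WT and 13.7 to 19.96 CPM in DKO. Serpinb9, the inhibitor of granzyme B, and Serpinb8 differed by 0.09 (SE 0.14) and -0.09 (SE 0.25), with limma adjusted p of 0.790 and 0.898; Serpinb8 turned to 0.08 without WT 4. The share of words found in any other gene was 29% for Serpinb6a, 10.2% for Serpinb1a, 6.83% for Serpinb6b and 4.94% for Serpinb9. Serpinb6a shared most with Nqo2, 13.1% of its words.

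**Figure D5:**
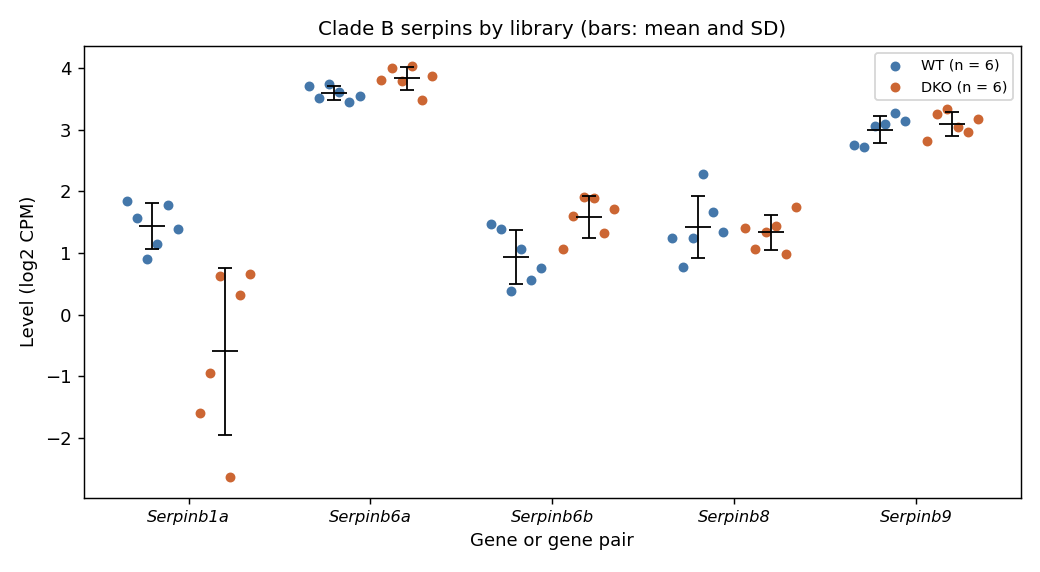
Level of the 5 clade B serpins in log2 CPM on the y axis, with 1 point per library (6 WT, 6 DKO) and the mean and SD as black bars. The DKO points of Serpinb1a (-2.63 to 0.65) all lie below its WT points (0.90 to 1.85), while most DKO points of Serpinb6a and Serpinb6b lie at the upper end of or above the WT range.

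Clade B serpins are made by leukocytes as well as by other cells, and leukocyte markers moved with the genotype. All 15 measured macrophage and monocyte markers were higher in DKO, 13 of them at an unadjusted limma p below 0.05 (86.7%, against 7.95% of all genes). Of these 3 rose (0.619% of all genes rose), Gpnmb, Ccr2 and Lyz2 (limma adjusted p = 0.000851, 0.0244 and 0.0357), with a summed level of 320.3 to 591.7 CPM in WT and 464.7 to 746.8 CPM in DKO. Of the 9 neutrophil markers listed, Csf3r and Mmp9 were measured, both at low levels (summed 2.06 to 5.36 CPM in WT and 3.82 to 7.68 CPM in DKO), and Mmp9 was closest to the threshold (1.90, SE 0.57, limma adjusted p = 0.103). Among 4 lymphocyte markers 1 rose, Ighm (limma adjusted p = 0.0453), with summed levels of 7.47 to 10.9 CPM in WT and 9.74 to 132.9 CPM in DKO. Serpinb6a, Serpinb6b and Serpinb9 were higher in DKO, as most of these leukocyte markers were, while Serpinb1a and Serpinb8 were lower. The part of these markers in the clade B values was not tested. In whole liver a change in the number of cells of a type and a change in RNA per cell cannot be told apart. Of the leukocyte proteases that these serpins inhibit, 1 of 8 listed was measured, Prtn3, proteinase 3 (1.19, SE 0.68, limma adjusted p = 0.407). Of 5 cathepsins 3 were higher and 2 lower and 0 were called by limma (3 at an unadjusted p below 0.05, 60% against 16.4% of all genes). Ctsh was closest (-0.31, SE 0.09, limma adjusted p = 0.0928).

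The serpins of coagulation, fibrinolysis and complement described here were not called, and each overlapped between the groups. Serpinc1, antithrombin, ranged from 10.65 to 11.11 log2 CPM in WT and from 10.48 to 10.84 in DKO (difference -0.09, SE 0.10, limma adjusted p = 0.686; 0.12 with quantile normalization and -0.03 without WT 1). Serpind1, the heparin cofactor that inhibits thrombin, ranged from 7.93 to 8.44 in WT and from 7.69 to 8.27 in DKO (-0.15, SE 0.12, limma adjusted p = 0.608). Serpinf2, which inhibits plasmin, ranged from 8.96 to 9.67 in WT and from 8.73 to 9.48 in DKO (-0.09, SE 0.15, limma adjusted p = 0.823; 0.00022 with quantile normalization and -0.0054 without WT 1). Serping1, the C1 inhibitor, ranged from 9.43 to 9.88 in WT and from 9.13 to 9.66 in DKO, with 4 DKO libraries below the lowest WT library (-0.18, SE 0.11, limma adjusted p = 0.413). Serpine2, protease nexin, ranged from 3.98 to 4.82 in WT and from 3.28 to 5.36 in DKO, where 4 libraries lay above the highest WT library and DKO 2 below the lowest (0.29, SE 0.29, limma adjusted p = 0.672; 0.58, SE 0.17, limma adjusted p = 0.106 without DKO 2).

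The proteases that these serpins inhibit were given by lists. Of 14 coagulation and fibrinolysis proteases 11 were lower and 3 higher in DKO and 0 were called by limma (median -0.20). An unadjusted limma p below 0.05 was reached by 6 lower and 2 higher, against 8.47% and 7.95% of all genes. Hgfac, the activator of hepatocyte growth factor, was closest (-0.38, SE 0.10, limma adjusted p = 0.0863), and F2, prothrombin, and Plg, plasminogen, differed by -0.25 (SE 0.08) and -0.29 (SE 0.10), with limma adjusted p of 0.141 and 0.150. Of 4 complement proteases, all lower, 1 fell (25%, against 1.12% of all genes). An unadjusted limma p below 0.05 was reached by 3 of them (75%, against 8.47% of all genes lower). The gene that fell was C1s1, a target of Serping1, to 75.4% of WT (log2 difference -0.41, SE 0.09, limma adjusted p = 0.0323). Among 7 cofactors and clearance receptors, 6 were lower and 0 were called by limma (2 at an unadjusted p below 0.05, 28.6% against 16.4% of all genes). Lrp1, which takes up complexes of serpins with proteases, was closest (-0.32, SE 0.10, limma adjusted p = 0.107). Of 16 protease inhibitors outside the family 1 rose (6.25%, against 0.619% of all genes), while 12 were lower (median -0.06). The gene that rose was Mug2, a murinoglobulin, to 146% of WT (0.54, SE 0.12, limma adjusted p = 0.0368). Agt, angiotensinogen, a serpin by structure whose symbol lies outside the rule, was 229.1 to 344.5 CPM in WT and 157.3 to 256.6 CPM in DKO (log2 difference -0.47, SE 0.13, limma adjusted p = 0.0901).

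The last members, Serpinf1 and Serpinh1, inhibit no protease. Serpinf1, the secreted pigment epithelium-derived factor, ranged from 8.93 to 9.29 log2 CPM in WT (median 9.13) and from 8.53 to 9.23 in DKO (median 8.88), with 4 DKO libraries below the lowest WT library (difference -0.24, SE 0.11, limma adjusted p = 0.317). Serpinh1, the collagen chaperone of the endoplasmic reticulum, ranged from 2.33 to 3.73 log2 CPM in WT (median 3.15) and from 2.89 to 4.26 in DKO (median 3.66), with 3 DKO libraries above the highest WT library (difference 0.55, SE 0.27, limma adjusted p = 0.330). Of 14 genes of collagen and its biosynthesis listed as partners of Serpinh1, 11 were higher and 3 lower, with a median of 0.52. By limma 0 were called, and 7 higher and 2 lower had an unadjusted p below 0.05 (against 7.95% and 8.47% of all genes). Col1a2, a chain of type I collagen, was closest (0.72, SE 0.19, limma adjusted p = 0.0787). Markers of stellate cells and fibroblasts were higher for 12 of 14 genes, 0 of them called by limma. Col1a1 and Col3a1 are in both lists, so the 2 counts are not independent. An unadjusted limma p below 0.05 was reached by 7, all higher (50%, against 7.95% of all genes). The summed level of these markers was 447.9 to 541.9 CPM in WT and 514.8 to 660.5 CPM in DKO. Their part in the Serpinh1 value was not tested.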

How the data were processed

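Polyadenylated RNA of 12 liver libraries (6 WT, 6 DKO, grouped by the genotype label) was sequenced. The authors deposited log2 CPM values that were filtered and normalized, as the table's name says; their filter, added count and factors are not stated. Tools listed in the submitters' processing notes, without a role, are limma, edgeR and kallisto 0.46.2, with build GRCm39. Of 12285 rows, 1 had no name (0.0075% to 0.0148% of CPM) and was left out. Depth is unknown.

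Each gene was fitted in limma 3.58.1 under R 4.3.3 (mean trend, 2-sided, no covariate), adjusted by Benjamini-Hochberg over 12284 genes and called below 0.05. Tested on simulated data for this comparison over 12284 genes, the fit recovered 25.4% of genes changed by 0.5, 80.6% by 1 and 97% by 2 on the log2 scale. Paralog sums, ratios, clade medians and lists are descriptions without a test. Alternatives were no trend, robust variance, log2(CPM + 1), a mean of at least 1 log2 CPM, subtracted medians, quantile normalization, array weights, the replicate block and each library left out.

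Members and lists were chosen with earlier results of these data known. All members enter the counts, but the values of 1 are not reported here; all values per library were given for members that were called, did not overlap or had an unadjusted p below 0.05, and of each list the called genes or else the closest. F2, Plg and Proz were named beyond this rule, as direct targets or partners of members. The mesothelial, endothelial, cholangiocyte and platelet markers are given in the closing section. Sequences came from GENCODE M21 (GRCm38) and RefSeq (GRCm38.p6), another build than the authors', and were read by symbol. Plots used matplotlib 3.10.9 and Python 3.11.15.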

Additional observations from a re-analysis of the deposited data

Results flagged for a closer look

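For 3 of the 62 groups of 6 libraries examined (31 genes in 2 groups), 1 library lay apart from the other 5 by more than Dixon's critical value for 6 samples; chance flags about 1 in 20 groups. Serpinc1 was 11.105 log2 CPM in WT 1, with the next library at 10.79. Serping1 was 9.878 log2 CPM in WT 1, with the next at 9.58. Serpina3k was 13.086 log2 CPM in WT 3, with the next at 13.30.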

How the results depend on the processing

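Of the single-gene differences, 344 of 372 with 1 library left out and 234 of 245 under other settings kept their sign and their side of the threshold. The number of genes called over all genes was 214 and became 138 without the trend, 356 with array weights, 109 with quantile normalization and 397 with the replicate block; with 1 library left out it ranged from 92 to 373. The number of serpin genes called was 1 and became 0 with quantile normalization, 2 with log2(CPM + 1) or array weights and 3 with the replicate block; with 1 library left out it ranged from 0 to 2. Same-numbered libraries deviated together at r from -0.08 to 0.29, below 0.1 in 4 of 6 numbers. Yet 4 of the 6 WT libraries correlated best with the DKO library of their own number. Whether the replicate numbers mark pairs is therefore not settled, and the main fit used no pairing. Under the block, Serpina1c, Serpina3g and Serpina3m were called (limma adjusted p = 0.0253, 0.0494 and 0.0429). Signs turned for Serpina3n (-0.0178) and Serpina7 (-0.0123) with medians subtracted, for Serpina7 (-0.0066), Serpinc1 (0.12) and Serpinf2 (0.00022) with quantile normalization and for Serpina7 (-0.24) with array weights. With 1 library left out, differences ranged from -0.0921 to 0.1085 for Serpina3n, -0.301 to 0.296 for Serpina7, -0.098 to 0.0546 for Serpina3k, -0.00576 to 0.254 for Serpina6, -0.36 to 0.285 for Serpina9 and -0.221 to 0.0803 for Serpinb8. The median of clade C, which is Serpinc1 alone, moved to 0.12 with quantile normalization; the medians of the other clades moved by less than 1 SD. The causes were not tested. Depth is unknown, and low members such as Serpinb1a are limited by the lowest value of the table (-3.26 log2 CPM).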

Other observations

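Several clade A genes varied together between libraries of the same genotype. WT 3 and WT 5 had the lowest WT values of Serpina1e (11.19 and 11.10 log2 CPM), Serpina10 (6.51 and 6.48), Serpina11 (5.93 and 6.01), Serpina12 (5.47 and 5.66) and Serpina7 (4.12 and 3.49). The same libraries had the highest WT values of Serpina3m (8.54 and 8.80) and Serpina3c (3.58 and 4.26). In DKO 1, Serpina1e (13.24), Serpina10 (7.55) and Serpina11 (6.92) were at their highest over all 12 libraries and Serpina3m (7.21) at its lowest. Serpina12 (6.54), Serpina7 (5.04) and Serpina3c (3.24) were neither highest nor lowest in DKO 1. The levels of Serpina1c in WT 3 and WT 5 (13.08 and 13.14) did not stand apart from the other WT libraries. The labels give no batch.

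The other marker lists read in the same libraries gave these values. All 12 endothelial markers were higher in DKO and 0 were called by limma. An unadjusted limma p below 0.05 was reached by 6 (50%, against 7.95% of all genes), with Cdh5 closest (0.34, SE 0.11, limma adjusted p = 0.120). Of 5 measured cholangiocyte markers 4 were higher and 1 lower in DKO, while Epcam and Cldn7 were not measured. Of the 5, 2 rose (40%, against 0.619% of all genes), Spp1 and Cd24a (limma adjusted p = 0.0213 and 0.0357). No other cholangiocyte marker had an unadjusted limma p below 0.05. Of 4 mesothelial markers and of 2 markers of mast cells and platelets 0 were called by limma (0 and 1 at an unadjusted p below 0.05), with Krt19, also listed for cholangiocytes (0.53, SE 0.43, limma adjusted p = 0.598) and Kit (0.40, SE 0.18, limma adjusted p = 0.276) closest.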
